A study of Mus musculus with 2 samples.

Results

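Nucleation promoting factors are the proteins that switch on the Arp2/3 complex, the machine that starts a new actin filament as a branch on an existing one. The genes described here are the WASP-type factors Was, Wasl and Whamm, the WAVE proteins Wasf1 and Wasf2, their complex partners Cyfip1, Nckap1l and Abi1, and the cortactin-type factors Hcls1 and Cttn. They were chosen by gene name as the nucleation promoting factors and partners other than WASH, and 9 of the 10 listed genes are described here, with 16 sequences of 44170. Was, the Wiskott-Aldrich syndrome gene, is not analysed here.

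WASP and N-WASP are held in a closed, inactive state until the GTPase Cdc42 and adaptor proteins open them. WAVE proteins sit in a stable complex with Cyfip, Nckap, Abi and Brk1 subunits, and the GTPase Rac releases their activity by binding Cyfip. In blood cells these factors drive lamellipodia, phagocytosis and the contact between immune cells, whereas WASH acts on the surface of endosomes.

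Gene expression was measured on NimbleGen arrays in LT-HSC (long-term haematopoietic stem cells), the rare marrow cells from which all blood can be rebuilt for life, sorted by flow cytometry from mouse femurs. The control array came from wild type control mice and the knockout array from mice lacking WASH, both of strain C57/BL6. Each group had 1 array, so no test, standard error or p-value could be given, and every difference below compares a pair of arrays rather than genotypes. The labels used here do not give the age of the mice, how many were pooled, or how the gene was deleted.

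The median intensity was 137 on both arrays. The random-sequence level, measured by 5000 probes of random sequence, was 71.3 for the control and 75.7 for the knockout. A sequence was taken as in the detected range when its intensity lay above the median of its array on at least 1 array. Stem cell identity could be checked only in part: 10 of 14 stem cell markers were in the detected range, with Kit at 398 (control) and 489 (knockout), while Procr, Fgd5 and Tek did not exceed the random-sequence level anywhere. The targeted gene Washc1 was at 119 and 107, which does not check the genotype, since the sources used here do not say where its probes lie. In such bulk samples, fewer cells of a type and less RNA per cell cannot be told apart.

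The nucleation promoting factors split between higher and lower values on the knockout array. Of the 16 sequences, 7 were higher and 9 lower on the knockout array. Their median log2 difference (knockout minus control) was -0.21, beside 0.01 over all sequences. A single sequence, 1 of the 2 of Wasf2, differed by at least 2-fold, and it was lower. Among all 44170 sequences, 12.7% differed by at least 2-fold in either direction, so 1 of 16 was no more than the background. With each gene represented by its brightest sequence, none of the 9 genes differed 2-fold, beside 12.4% of all genes.

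In the detected range were 11 of the 16 sequences, of 6 genes. Of these 11, 5 were higher and 6 lower, and the same Wasf2 sequence was the 1 past 2-fold, beside 15.0% of the 24899 sequences in that range (8.20% lower). The 6 genes were Wasf1, Wasf2, Whamm, Cyfip1, Abi1 and Hcls1, and none reached 2-fold, beside 13.7% of 16245 genes (6.41% higher and 7.29% lower). Of the 11 sequences, 3 passed through 1 array only (AY135643 of Wasf2 and AK152046 of Abi1 through the control, BC047135 of Cyfip1 through the knockout), so the direction of their difference was built into their selection. The median of the 6 genes was -0.24, and it was 0.01 with the series table and with dim genes kept, so it had no settled direction. The intensities of all 16 sequences are shown in the plot by gene, and levels of different sequences are not compared with each other because each depends on its own probes.

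**Figure D1:**
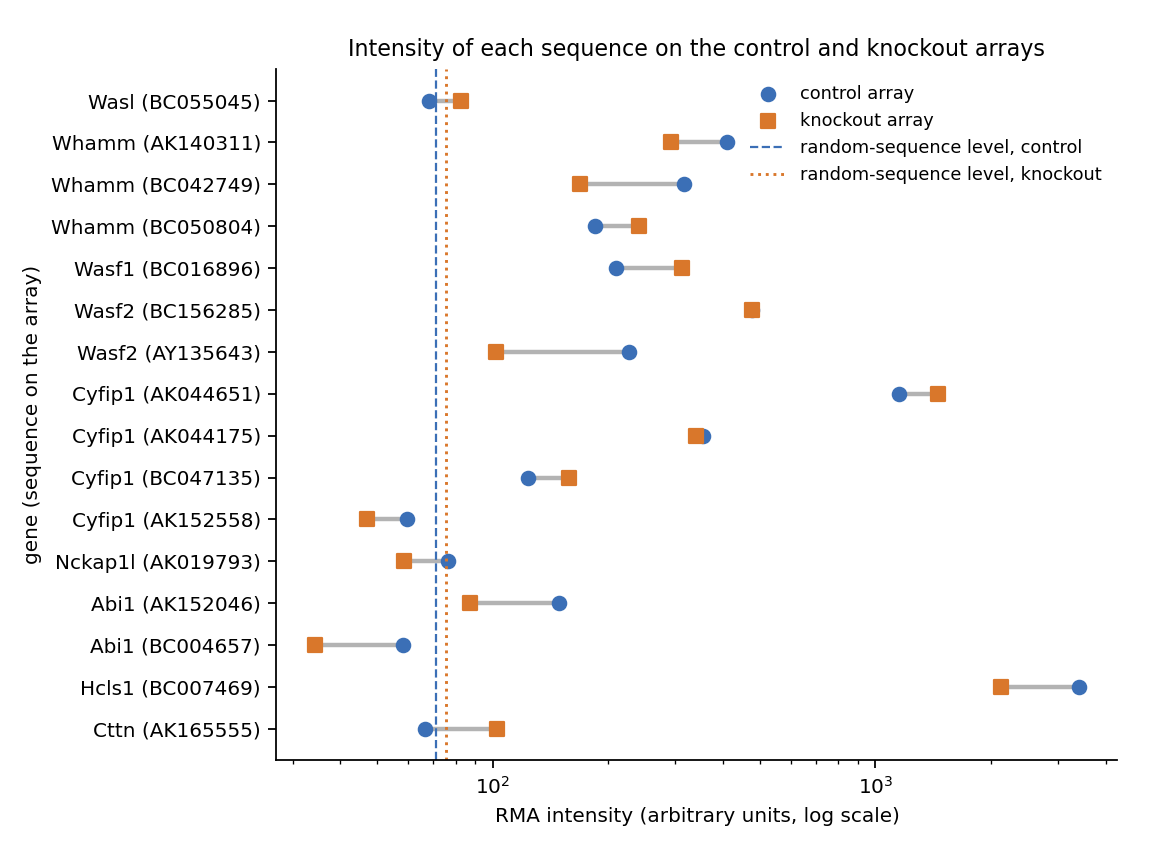
Intensity (horizontal, log scale) of each of the 16 sequences in the control (circles) and the knockout (squares), with the random-sequence levels of both arrays as vertical lines. Hcls1 lay far to the right on both arrays (3408 and 2134), while Wasl, Cttn, Nckap1l and the dimmest sequences of Abi1 and Cyfip1 lay at or near the random-sequence level.

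Of the WASP-type factors, Whamm was measured and Wasl was near background. Whamm, which promotes actin assembly at the Golgi and on forming autophagosomes, lies on chromosome 7 (88716163 to 88741376, MM9, the mouse build of the files) and had 3 sequences. The sequence AK140311 had intensities of 409 (control) and 292 (knockout), a log2 difference of -0.49. BC042749 was at 315 and 169, a difference of -0.90, and BC050804 was at 186 and 241, a difference of 0.38. AK140311 and BC042749 were thus lower and BC050804 higher on the knockout array, and all 3 stood above the random-sequence level on both arrays. The sequences BC042749 and BC050804 end within 9 bases of each other and start 666 bases apart, yet their differences were 1.28 log2 units apart. No direction can be given for Whamm as a gene.

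Wasl, which encodes the broadly expressed N-WASP (chromosome 6, 24563806 to 24614971), had 1 sequence. Its control value of 68.2 lay below the random-sequence level, and its knockout value of 82.9 was only 1.10 times that level. With the control set to its random-sequence level, the knockout was at least 1.16-fold higher. Wasl was therefore close to background on both arrays.

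Among the WAVE proteins, Wasf1 was higher on the knockout array and Wasf2 depended on the sequence read. Wasf1, the WAVE protein best known from the nervous system (chromosome 10, 40603381 to 40658370), had 1 sequence, with an intensity of 210.5 in control and 312 in knockout cells. The log2 difference was 0.57, and 39.4% of all sequences in the detected range differed by as much or more. Its level was 2.95 and 4.13 times the random-sequence level, so it was measured on both arrays, but no second sequence was there to compare it with.

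Wasf2, which encodes WAVE2, the main WAVE protein of blood cells, had 2 sequences on chromosome 4. The sequence BC156285 (132732388 to 132751787) gave 475 for the control and 477 for the knockout, a log2 difference of 0.01. The sequence AY135643 (132732285 to 132754245) was at 227 and 102, a difference of -1.16 or 2.23-fold lower. It was the only member sequence past 2-fold, and 10.4% of the sequences in the detected range differed by at least as much. On the knockout array it stood at 1.35 times the random-sequence level, so its lower value was close to background. It passed the filter only through the control array, where it was the higher.

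The spans of the Wasf2 sequences differ at the far end. RefSeq places Wasf2 on the plus strand, and AY135643 ends 2458 bases beyond BC156285, towards the 3' end of the gene. One more array sequence, AK199358 (chromosome 4, 132753316 to 132755300), overlaps the last 930 bases of AY135643 and starts 1529 bases beyond the end of BC156285. The files give it no gene symbol and state its strand as unspecified, and it was looked up only because it overlaps a member. Its intensity was 1168 in control and 428 in knockout cells, which differ by -1.45, and it stood at 16.4 and 5.66 times the random-sequence level. AK199358 lay above the array median on both arrays, whereas the lower value of AY135643 was partly set by how it passed the filter. The sequence that ends first, BC156285, was level. The sources used here do not say where the 3 probes of each sequence lie, and whether AK199358 is part of the Wasf2 transcript was not tested.

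**Figure D2:**
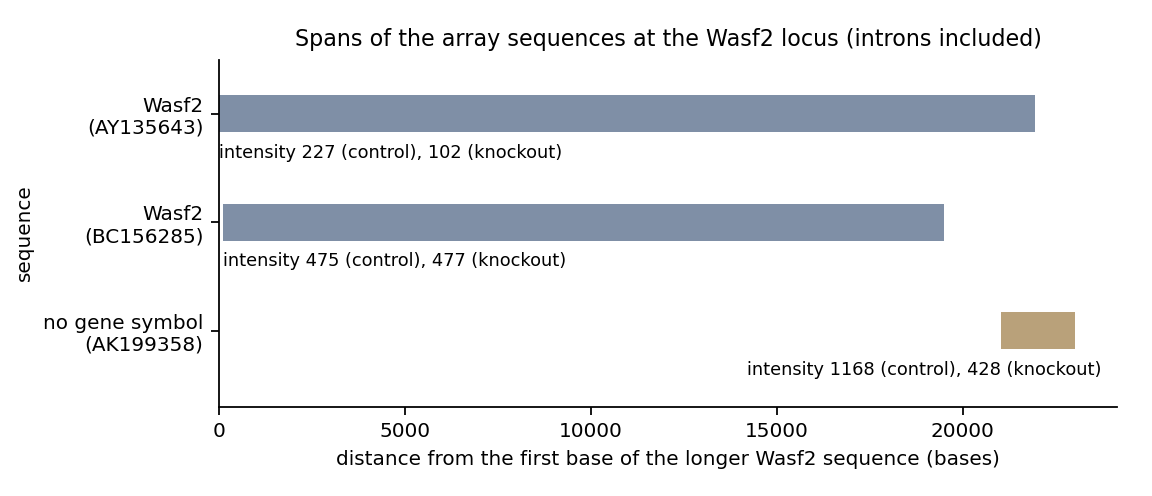
Spans of the 3 array sequences at the Wasf2 locus, as distance in bases from the first base of AY135643 (introns included), with the intensity on each array printed under each bar. AY135643 and AK199358, which overlap at the right, were lower on the knockout array (differences of -1.16 and -1.45), while BC156285 was level (0.01).

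Of the partners of the WAVE complex, only Cyfip1 had sequences above the array median on both arrays, so the directions of the partners could not be compared. Cyfip1, the subunit that binds Rac (chromosome 7, 63097396 to 63186068), had 4 sequences. AK044651 had 1155 (control) and 1460.2 (knockout), a difference of 0.34, and BC047135 had 123 and 158 (0.36). AK044175 was at 355 and 339 (-0.07), and AK152558 was below the random-sequence level on both arrays, at 59.7 and 47.0. BC047135 passed the filter only through the knockout array, so its direction says nothing further about the gene. The differences of the 3 sequences lay within 0.42 log2 units of each other. AK044651, at 16.2 and 19.3 times the random-sequence level, covers a shorter span than the others and ends 38268 bases before BC047135.

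Abi1, the Abl interactor that ties the complex together (chromosome 2, 22795508 to 22895712), was lower with the 1 sequence that could be measured. AK152046 had 149 (control) and 87.1 (knockout), differing by -0.78. It stood at 2.10 and 1.15 times the random-sequence level and passed the filter only through the control array. BC004657, at 58.2 and 34.3, exceeded that level nowhere, so its difference of -0.76 carries no level of its own. A sequence of the neighbouring gene Pdss1, which overlaps the Abi1 span by 272 bases, was also lower, at 542 and 352 (-0.62), and a sequence of 1200016E24Rik inside that span was at 1516 and 1793 (0.24).

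Nckap1l, or Hem1, the Nckap subunit of blood cells (chromosome 15, 103309578 to 103329231), had 1 sequence, with 76.6 for the control and 58.5 for the knockout. The control value was only 1.07 times the random-sequence level and the knockout value was below it, so the knockout was at least 1.01-fold lower. A change in Nckap1l could not be seen at this signal.

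**Figure D3:**
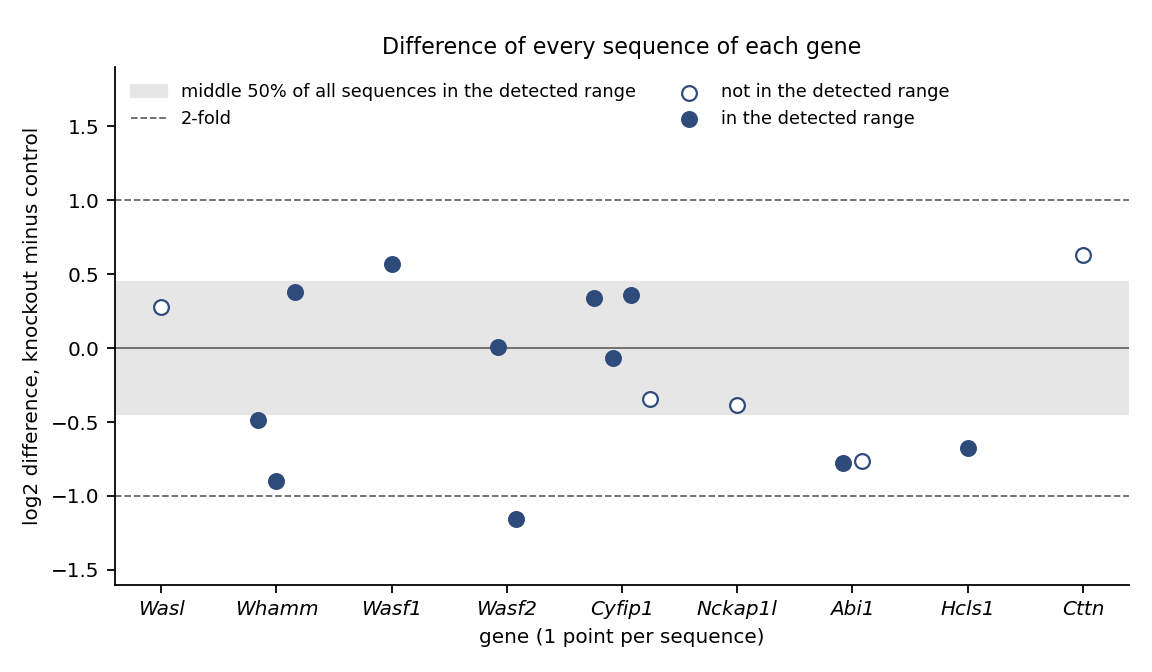
Log2 difference (knockout minus control, vertical) of each sequence, grouped by gene, with filled points in the detected range, dashed lines at 2-fold and a grey band for the middle 50% of all sequences in the detected range (-0.45 to 0.45). Only 1 point, a Wasf2 sequence, lies beyond 2-fold, and the sequences of Whamm and Wasf2 spread widest.

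Of the cortactin-type factors, Hcls1 was far above background and lower on the knockout array, while Cttn was near background. Hcls1, or HS1, the cortactin relative of blood cells and a target of the kinase Lyn (chromosome 16, 36935098 to 36963300), had intensities of 3408 (control) and 2134 (knockout), 47.8 and 28.2 times the random-sequence level. The knockout value was 1.60-fold lower (log2 difference -0.68). Differences of this size or more were seen in 29.8% of sequences above the 75th percentile of intensity, so it was an ordinary one for this pair of arrays. Its value ranged from -0.68 to -0.62 over the alternative settings, of which those on the choice of sequence could not move it, since it has 1 sequence. Cttn, cortactin itself, which holds actin branches in place in adherent cells (chromosome 7, 151621628 to 151656646), was below the random-sequence level in the control (66.4) and at 103 in the knockout, at least 1.44-fold higher. Only Hcls1 of this pair was thus measured on both arrays.

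Markers of neutrophils and monocytes and of red cells differed between the arrays. Of 20 neutrophil and monocyte markers, 17 were in the detected range, 12 of them lower and 5 higher in the knockout. Itgam, among the higher ones, passed only through the knockout array, so its direction was built into its selection. The other higher markers were Csf1r (248 and 563), Ly6c2 (402 and 617), Fcgr3 (790 and 1154) and Cebpe (158 and 162). These lay above the array median on both arrays. Of 3 sequences each, however, 2 of Csf1r and 1 of Fcgr3 were lower. The summed intensity of all 20 was 150100 for the control and 61564 for the knockout. A few bright genes made up most of that sum, among them S100a8 at 47334 and 16696 and S100a9 at 34133 and 13043. All 13 erythroid markers in the detected range, of 14, were higher. Klf1 (69.6 and 192) and Car1 (37.2 and 183) passed only through the knockout array, so they could only be higher. With a filter on the random-sequence level of both arrays, added after seeing the data, 11 were in range and all 11 were higher. The sum of the 14 went from 16270 to 84214, of which the globin gene Hbb-b1 gave 5699 and 43218 and Hba-a2 gave 5551 and 26801. No marker of either list was below the random-sequence level on both arrays. The medians of the other lists were 0.06 for B lymphoid, 0.09 for T and NK lymphoid, 0.24 for macrophage, -0.02 for megakaryocyte, -0.58 for mast cell and eosinophil and 0.05 for stromal markers, each over 4 to 6 genes in the detected range. Hcls1 and Nckap1l are genes of blood cells in general, and the part of these other cells in their values was not tested.

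With 1 array per group, the spread used here was that between separate sequences of 1 gene, which covers probes and transcripts but not animals. The files also hold a further value beside each intensity (SE_EXPRS), with no stated meaning, and it was not used. Over 4969 genes with more than 1 detected sequence, the pooled SD between the differences of sequences of 1 gene was 0.66. Between sequences, Whamm had an SD of 0.65 (n = 3), Wasf2 of 0.82 (n = 2) and Cyfip1 of 0.34 (n = 4, the sequence below the random-sequence level included). The differences of Wasf1 (0.57) and of the brightest sequences of Whamm (-0.49) and Cyfip1 (0.34) were smaller than that pooled SD. Those of Hcls1 (-0.68) and Abi1 (-0.78) were about 1 SD or slightly more. Larger than the pooled SD were also the dimmer sequences BC042749 of Whamm (-0.90) and AY135643 of Wasf2 (-1.16). In the plot against all sequences, the factors are spread through the bulk of the points.

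**Figure D4:**
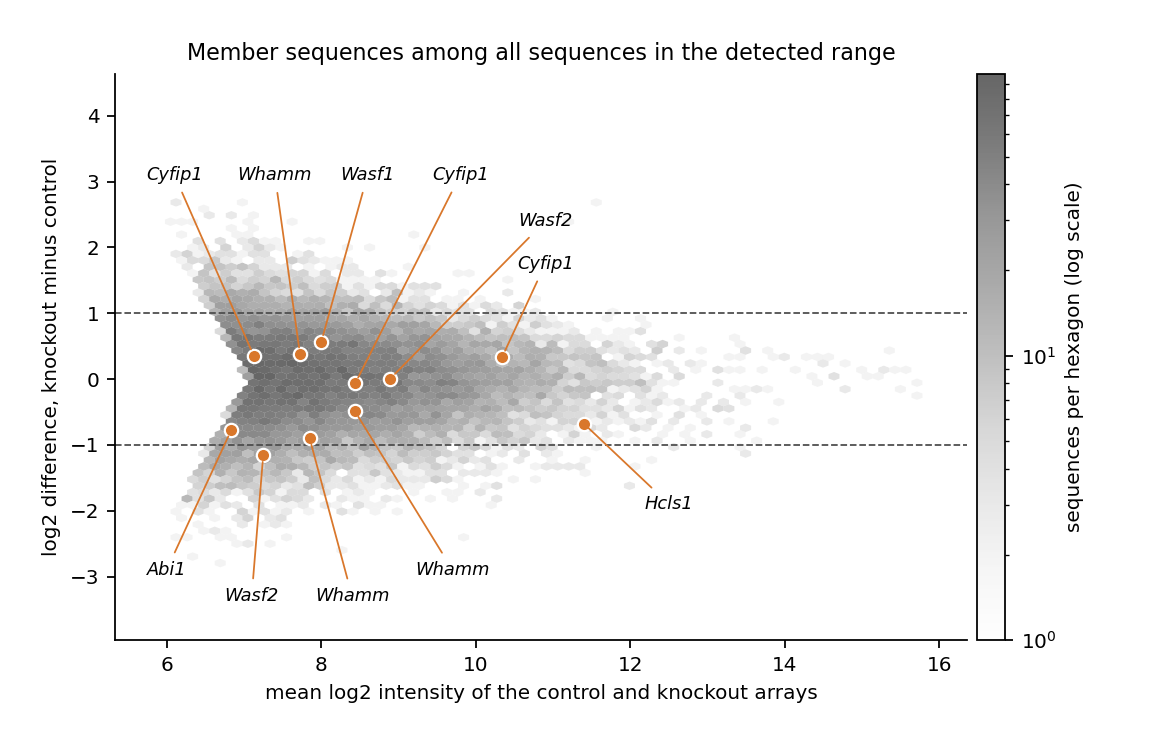
Log2 difference (knockout minus control) against the mean log2 intensity of both arrays for the 24899 sequences in the detected range (grey hexagons, darker for more sequences), with the 11 member sequences in that range as named points. All but 1 of the member sequences lie between the dashed 2-fold lines, and Hcls1 lies at high intensity.

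Other genes of the same families and complexes also lay on both sides. Of 10 such genes, 4 were in the detected range, 2 higher and 2 lower, and none reached 2-fold with its brightest sequence. Wipf1 passed by that sequence only through the control array and Wipf2 only through the knockout, so their direction was built into their selection. Jmy, a nucleation promoting factor related to Whamm, was higher with both sequences, from 535 to 998 (0.90) and from 203 to 297 (0.55). Wipf1, the chaperone that stabilises WASP, was at 211 and 122 (-0.79) with 1 sequence and at 137 and 153 (0.16) with the other. Cyfip2, which takes the place of Cyfip1 in some WAVE complexes, was lower with both sequences, at 297 and 191 (-0.63) and at 220.3 and 100.1 (-1.14), while Wipf2 was level (0.18). The dimmer Cyfip2 sequence passed only through the control array, so its direction was built into its selection. Wasf3, Abi2, Abi3, Brk1, Nckap1 and Wipf3 were not in the detected range. For Wasf3, at 133 and 109, this was narrow, while Nckap1 and Wipf3 exceeded the random-sequence level nowhere.

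The Arp2/3 complex, which these factors activate, was mostly lower on the knockout array. Of its 9 genes in the detected range, of 10, 8 were lower and 3 at least 2-fold lower, with a median of -0.92. Among all 16245 genes in that range, 7839 were lower and 7.29% at least 2-fold lower, with a median of 0.03. With the mean of the sequences of each gene, 2 Arp2/3 genes were higher and 7 lower, 5 of them at least 2-fold lower. That setting put 9.36% of all genes past 2-fold in either direction. By the brightest sequence, the largest differences were those of Actr3 (7159 and 2388, -1.58), Arpc5 (4061 and 1650.1, -1.30) and Actr2 (378 and 176, -1.10), and both sequences of each were lower. Dimmer or near-equal sequences gave larger differences for Arpc3, with BC013618 at 565 and 142 (-1.99) beside -0.94 for its brightest by the mean of both arrays, and for Arpc2, with AK170061 at -1.57 and AK083263 at -1.49 beside -0.34. AK170061 passed only through the control array, so it could only be lower. Arpc1a was higher, at 76.4 and 145, but passed only through the knockout array. Arpc1b, at 202 and 107 (-0.92), passed only through the control, so the direction of both was built into their selection. With a filter on the random-sequence level of both arrays, added after seeing the data, 8 of 9 were again lower, 3 of them at least 2-fold. The median of the 6 nucleation promoting factors was -0.24 on the same arrays, and the difference between the lists was not tested. The Arp2/3 median stayed below 0 in every alternative setting, from -1.10 to -0.55.

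Genes of branch and filament turnover, which dismantle, cap or bundle filaments, were likewise mostly lower. Of 24 genes, 23 were in the detected range, 19 lower and 4 higher, with 8 at least 2-fold lower, none 2-fold higher and a median of -0.77, beside the 7.29% lower and 6.41% higher of all genes. Gmfg, Coro1b, Capg, Pfn1 and Gsn passed only through the control array, so their lower direction was built into their selection. Capg (-1.24) and Gsn (-1.10) were among those at least 2-fold lower. The bundling protein gene Lcp1 was at 9112 and 2570 (-1.83), the monomer-binding thymosin gene Tmsb4x at 22846 and 8194 (-1.48), the filament-severing Dstn at 1829 and 675 (-1.44) and the cofilin partner Cap1 at 3694 and 1437 (-1.36). Arpin, an inhibitor of Arp2/3, was higher, at 245 and 332 (0.44). The neutrophil and monocyte markers had a median of -0.76 on the same arrays, and their part in the Arp2/3 and turnover values was not tested.

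The upstream genes that open or recruit WASP and WAVE were mixed. Of 37 GTPases, kinases and adaptors, 31 were in the detected range, 13 higher and 18 lower, of which 2 reached 2-fold higher and 5 reached 2-fold lower, with a median of -0.13, beside the same 6.41% and 7.29% of all genes. The split depended on the sequence that stood for a gene. With the mean of the sequences it was 5 higher and 26 lower (1 and 2 past 2-fold, median -0.34), and with the dimmest sequence 4 higher and 13 lower (median -0.48). With the series table none reached 2-fold higher and 5 reached 2-fold lower. The same counts came with a filter on the random-sequence level of both arrays, added after seeing the data. Crk and Nck2, the 2 past 2-fold higher, passed only through the knockout array, so they could only be higher. The exchange factor gene Vav1 was at 4776 and 1768 (-1.43), and its 5 sequences ranged from -1.43 to 0.53. The adaptor gene Grb2 was at 992 and 410.4 (-1.27), with 2 of its 3 sequences higher. Crk, an adaptor gene, was at 35.0, below the random-sequence level, and 149.7 (at least 2.10-fold higher) with 1 sequence and differed by -0.06 with the other. Among the GTPases, chosen after their values were seen, Cdc42 was at 2783 and 2896 (0.06), but 3 of its 4 sequences were lower, by up to -1.50, and Rac2 was at 375 and 335 (-0.16) with its 1 sequence. Rhoa was at 9882 and 16365 (0.73) with its brightest sequence and differed by -0.55 with the other. Rhog, at 161 and 96.2 (-0.74), and Arf6, at 199 and 90.9 (-1.13), were lower but passed only through the control array. Arf1 was at 156 and 145 (-0.11). Rac1, at 96.0 and 109, and Rac3, at 77.9 and 56.2, were not in the detected range. The Nck adaptors, which bind WASP, gave opposite readings by sequence. Nck2 was below the random-sequence level in the control (67.9) and at 160 in the knockout, at least 2.24-fold higher, with its other 2 sequences lower. Nck1 was level with the brightest sequence (0.02) and differed by -1.73 with the other.

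Other nucleators, which build unbranched filaments or elongate them, had 16 of 21 genes in the detected range, 10 higher and 6 lower, with a median of 0.13 that ranged from -0.16 to 0.28 over the alternative settings. Fmnl2, Daam2 and Lmod1 passed only through the knockout array, so they could only be higher. The formin gene Diaph1 was lower with all 3 of its sequences, at 1741 and 550.1 for the brightest (-1.66), and Diaph2 was at 376 and 114 (-1.72) but differed by only -0.11 with its other sequence. Diaph2 passed by its brightest sequence only through the control array, so it could only be lower. Fmnl3 was at 183 and 397 (1.11), while its 3 sequences ranged from -0.87 to 1.11, and Cobl was at 173 and 362 (1.06), with both sequences higher. Thus 2 of the 16 genes reached 2-fold in each direction by the brightest sequence, beside 6.41% higher and 7.29% lower of all genes. With the mean of the sequences 1 reached 2-fold lower and 0 higher, beside 9.36% of all genes in either direction. Of the WASH complex, Washc2 was at 466 and 151 (-1.63), and Washc3 was the other of 4 genes in the detected range, at 142 and 136. Washc3 passed only through the control array.

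**Figure D5:**
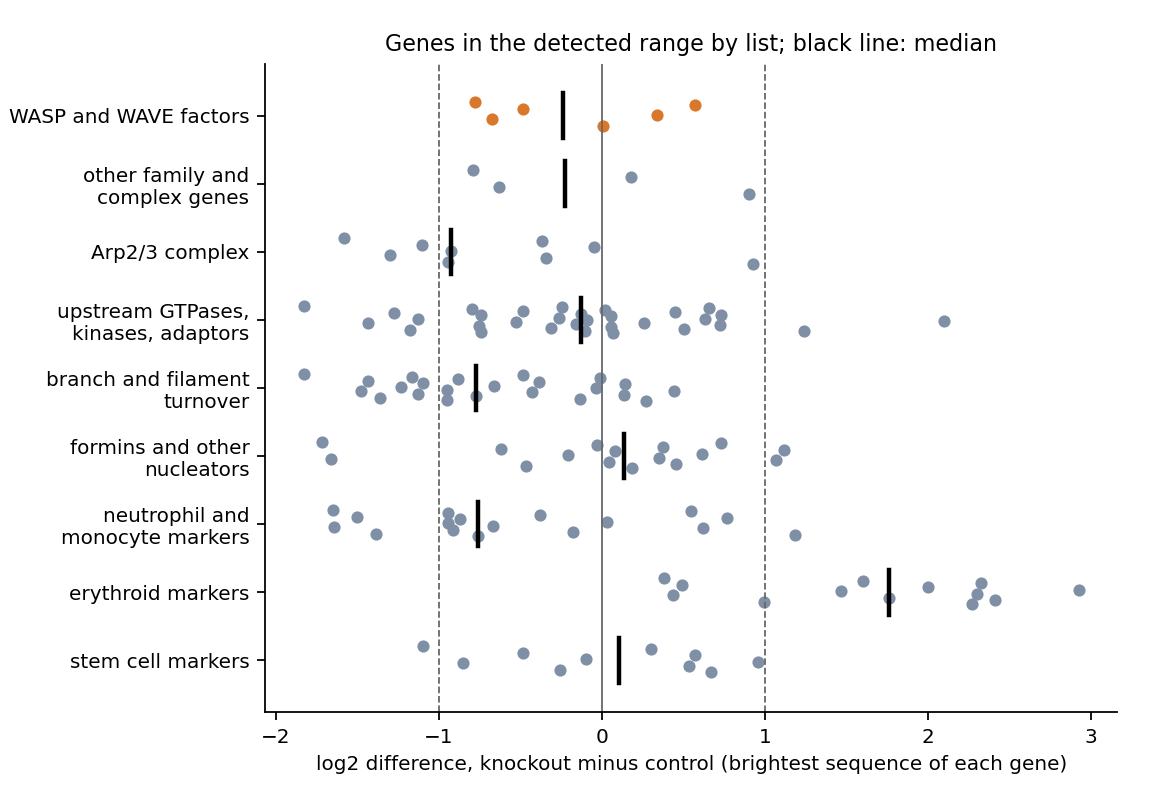
Log2 difference (knockout minus control, horizontal) of each gene in the detected range, by its brightest sequence, with 1 point per gene and the median of each list as a black line. The 6 WASP and WAVE factors lie between -0.78 and 0.57 with a median of -0.24, while the Arp2/3 genes have a median of -0.92, the neutrophil and monocyte markers -0.76 and the erythroid markers 1.76.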

How the data were processed

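Each sample was 1 array of sorted LT-HSC RNA labelled with Cy3. The authors deposited 1 intensity per sequence on a linear scale, made with RMA per the submitters' processing notes (background correction, normalization between arrays, summary over probes). RMA pulls array distributions together, so a shift of most genes would not show. Per the file headers, 44155 of 44170 sequences had 3 probes, and so had every member. Precision is limited by the number of arrays.

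Log2 intensities were subtracted (knockout minus control) without further scaling, in Python 3.11.15. Members were matched on the gene name in the files. List genes were named through RefSeq by gene identifier, 21583 of which matched. The brightest of its sequences stood for a gene. The detected range was above percentile 50 of at least 1 array. In every list, a gene that passed through 1 array only had its direction built into its selection. In place of a test, a size of 2-fold was counted. A sequence at or below the random-sequence level on 1 array has a bound ("at least") computed from that level.

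The members and lists were chosen with earlier results of these data known. Named were all members with every sequence, and of each pathway list up to 4 genes at 2-fold, or 2 where none reached it, and Washc1; other list genes were chosen after their values were seen. A gene that this rule names is not reported here. The log2 differences, unscaled and under the alternative scalings, were tested on simulated arrays with known changes. The offset, the gene summaries, the bounds and the list counts were not tested in this way. Probe sequences were not used here.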

Additional observations from a re-analysis of the deposited data

How the results depend on the processing

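With 1 array per group, animals, sorts and hybridisations cannot be told apart from genotype, and signal near the random-sequence level limits Wasl, Cttn, Nckap1l and Abi1. All 12 alternative settings chosen at the start were run, and a filter on the random-sequence level of both arrays was added after seeing the data. No paired analysis was possible because there is only 1 array of each genotype. The differences of 6 of the 9 genes kept their sign in every alternative, but 5 of these have 1 sequence, so that only the scaling settings and the offset could move them. Those of Cyfip1 (-0.34) and Whamm (0.38) turned with the dimmest sequence, and that of Wasf2 became -1.16 with it and -0.58 with the mean of the sequences. The count of lower member sequences past the size was 1, and became 0 with an offset of 100 before the log, 0 with the 75th percentile filter, 4 at 1.5-fold and 0 at 3-fold. The count of lower member genes was 0, and became 1 with the dimmest sequence and 2 at 1.5-fold. The background share was 15.0% of sequences and 13.7% of genes, and became 4.94% and 5.01% with the offset, 38.0% and 36.8% at 1.5-fold, and 3.75% and 3.21% at 3-fold. Other sizes and filters change these counts by construction; for the offset and the choice of sequence the cause was not tested. The median of the other family genes turned to 0.17 with the dimmest sequence. With the 75th percentile filter only Jmy (0.90) was left of that list, so no median could be read. That of the stem cell markers ranged from -0.29 to 0.30.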
